A study of Rattus norvegicus with 16 samples.

Results

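The interleukin 6 cytokines and the STAT3 signalling they start were examined as 10 genes in the distal colon of rats that had, or had not, been given dextran sodium sulfate (DSS), a polymer that inflames the colon. The genes are the cytokines Il6, Il11, Osm and Lif, the receptor chains Il6r, Il6st, Osmr and Il10ra, the transcription factor Stat3 and its feedback inhibitor Socs3. They were chosen by name, and each was read through the array probes whose RefSeq transcript belongs to it. This gave 10 probes for the 10 genes, 1 for each, out of 30367 probes on the array. The arrays name 15159 genes in all.

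The samples were normal distal colon from 16 male rats of the (ACIxF344)F1-Pirc cross, 1 single-colour Agilent array per rat and 4 rats in each of 4 groups. Wildtype rats were untreated or DSS-treated, and Pirc/+ rats, which carry a nonsense allele of the tumour suppressor Apc in heterozygous form, were untreated or DSS-treated. Treated rats drank 4% DSS of high molecular weight in 2 courses, on days 40 to 47 and 54 to 61 of age. Tissue was taken at 97 days of age in every group, which is 36 days after the second course ended. The strain label is the same for wildtype rats. The published methods describe normal colonic epithelium scraped from the lumen at a distance from any visible tumour. They cover untreated animals only, so whether the DSS-treated rats here were sampled in that way is not stated. The arrays lie on 2 slides with 2 rats of every group on each, and each group lies in 1 array column, so that column and group cannot be told apart. The values are log2 levels, that is, log2 ratios of a probe's signal to the 75th percentile of the signals on the same array. A level below 0 is therefore dimmer than that percentile, and levels of different genes are not comparable because each probe binds with its own strength. The percentile itself lay between 875 and 2194 over the arrays, 71.11% to 80.32% of spots were well above background, and the number of arrays limits the precision.

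In this family, a cytokine binds a private receptor chain such as Il6r or Osmr, which pairs with the shared chain gp130, the product of Il6st. Janus kinases held by the receptors then phosphorylate Stat3, which enters the nucleus and binds DNA. Socs3 is switched on by STAT3 and blocks gp130, closing the loop, so its transcript is widely read as a sign of recent signalling. Il10ra is the private chain of the interleukin 10 receptor, which also works through STAT3 but not through gp130. In the colon the pathway is known for epithelial repair after injury and for its part in inflammation and in tumour growth.

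All 10 measured markers of colon epithelium, among them Epcam, Vil1 and Cdx2, were well above background on 16 of 16 arrays. Of these, 2 were lower after DSS in Pirc rats, where 14.7% of all probes passed in either direction. After DSS, 5 were lower in Pirc than in wildtype rats, where 18.2% of all probes passed in either direction. Markers of other cell types moved with DSS. Of the measured markers, 7 of 10 for macrophages and monocytes, 4 of 8 for neutrophils, 9 of 9 for fibroblasts and 8 of 8 for squamous epithelium were higher after DSS over both genotypes, beside 10.2% of all probes. So were 3 of 3 markers of B and plasma cells, 3 of 5 of endothelium, 1 of 9 of T cells and 1 of 7 of smooth muscle, where 1 more was lower. Elane of the neutrophil list, Tek of the endothelial list and Lmod1 of the smooth muscle list were not well above background on any array (0 of 16 each). The part of these cells in the differences below was not tested, and in tissue RNA fewer cells of a type and less RNA per cell cannot be told apart.

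**Figure D1:**
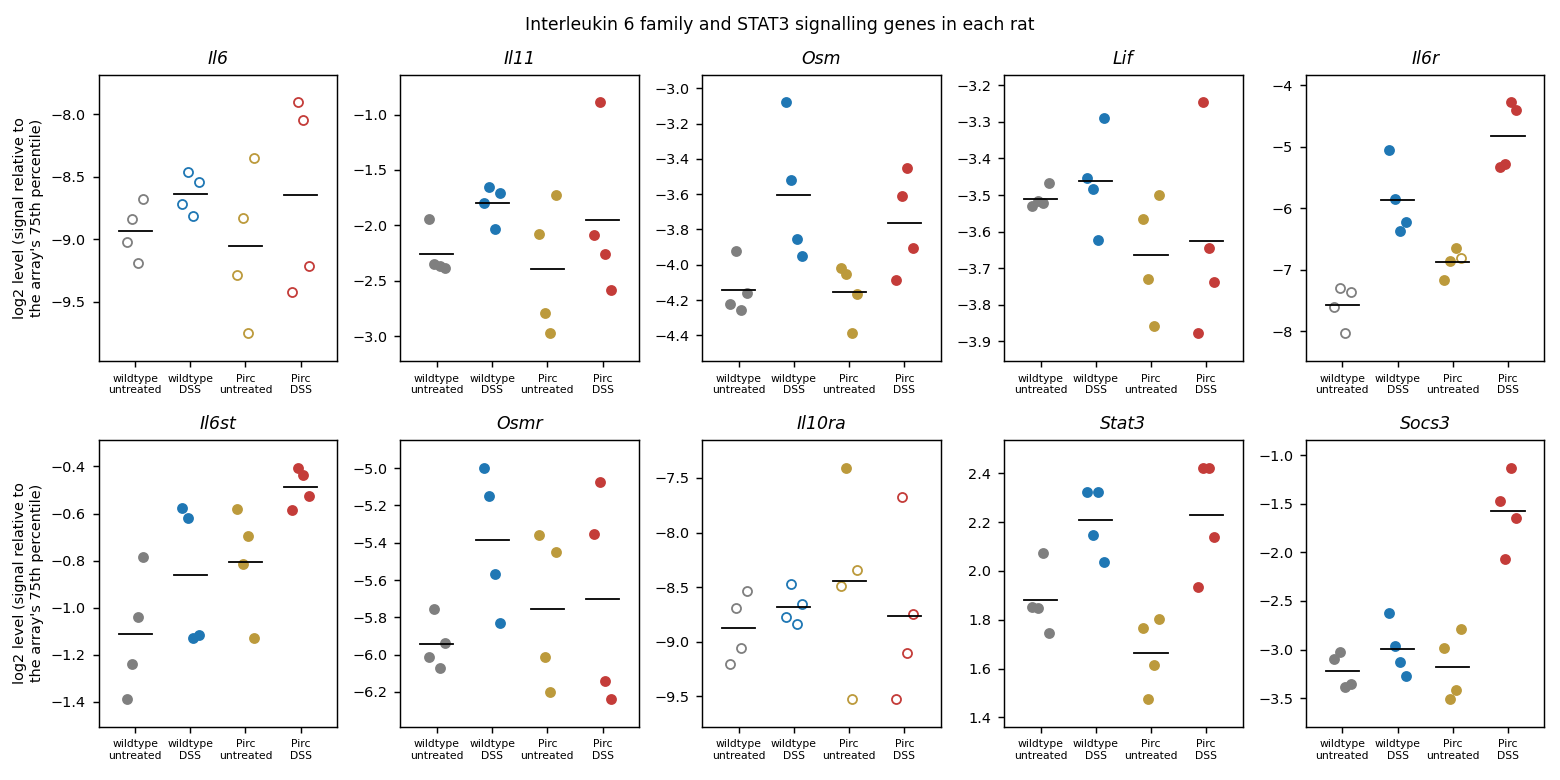
Log2 level of the 10 genes in each rat (vertical axis, signal relative to the array's 75th percentile, a separate scale for each gene) in the 4 groups (horizontal axis). Filled points were well above background on that array, open points were not, and lines are group means of 4 rats. All 4 DSS-treated Pirc rats lie above every other rat for Socs3, whereas Il6 is open throughout.

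Over both genotypes, 4 of the 10 genes were higher after DSS at an adjusted p of 0.05 or less in limma, and none was lower. They were Il6r, Stat3, Socs3 and Osm. That test found 10.2% of all probes higher. With a minimum change of a factor of 2 only Il6r remained, beside 5% of all probes. The median log2 difference of the 10 genes was 0.40, beside 0.06 over all probes.

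In Pirc rats 3 of the 10 genes were higher after DSS (Il6r, Socs3 and Stat3), beside 8.14% of all probes, and Il6r and Socs3 also met the factor of 2, beside 5.51%. In wildtype rats Il6r alone passed, and it met the factor of 2 as well. There 2.94% of all probes were higher and 2.37% also met the factor. The same 3 genes were without overlap between DSS-treated and untreated Pirc rats, which held for 16.9% of all probes. In wildtype rats the groups were apart for 1 of the 10, Il6r, and for 12.4% of all probes. None of the 10 passed the test of the difference between the 2 DSS effects, which 13 probes (0.0428%) passed.

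Socs3, the feedback inhibitor, showed the widest gap of the 10 between DSS-treated Pirc and wildtype rats. In untreated wildtype rats its log2 levels were -3.39, -3.35, -3.10 and -3.03. In DSS-treated wildtype rats they were -3.28, -3.13, -2.96 and -2.63. Untreated Pirc rats had -3.51, -3.41, -2.99 and -2.79. DSS-treated Pirc rats had -2.07, -1.64, -1.47 and -1.13, so that the lowest of them was above the highest of the 12 other rats, while the other 3 groups overlapped each other.

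In Pirc rats Socs3 rose after DSS by 1.60 on the log2 scale (SE 0.22, adjusted p = 0.000292 in limma), a factor of 3.03. In wildtype rats the difference was 0.22 (95% interval -0.24 to 0.68, adjusted p = 0.71). Among DSS-treated rats Socs3 was higher in Pirc than in wildtype by 1.42 (SE 0.22, adjusted p = 0.00124), a factor of 2.68. Within the slides this was 1.02 on slide 1 and 1.82 on slide 2, and neither passed alone (adjusted p = 0.111 and 0.0756). Among untreated rats the difference between genotypes was 0.04 (95% interval -0.42 to 0.50, adjusted p = 0.968). The DSS effect in Pirc rats exceeded that in wildtype rats by 1.38 (SE 0.30, 95% interval 0.73 to 2.03), with an unadjusted p of 0.00042 in limma and an adjusted p of 0.121 over all probes, which does not pass. Without any 1 rat that adjusted p ranged from 0.0739 to 0.279, and the adjusted p for DSS in Pirc rats stayed between 0.000275 and 0.00162. The rise after DSS in Pirc rats was 1.48 within slide 1 (adjusted p = 0.0374) and 1.72 within slide 2 (adjusted p = 0.0559).

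Markers of several other cell types also rose after DSS. Between DSS-treated Pirc and wildtype rats, 9.47% of all probes were higher in Pirc rats. So were 4 of 8 squamous, 3 of 8 neutrophil, 1 of 3 B and plasma cell and 1 of 10 macrophage markers. Of the 5 endothelial markers 0 were. No marker of these lists passed the test of the difference between the 2 DSS effects. The 3 markers of B and plasma cells were all higher after DSS in Pirc rats and 0 of them in wildtype rats, and for endothelium the counts were 3 of 5 and 0 of 5. Of all probes, 8.14% were higher in Pirc and 2.94% in wildtype rats. DSS-treated wildtype rat 26 had the highest B and plasma cell mean of all rats, -4.70, against -5.90 to -5.05 in DSS-treated Pirc rats. Macrophage markers were higher in both genotypes (6 of 10 in Pirc and 4 of 10 in wildtype rats), as were squamous markers (8 of 8 and 4 of 8) and neutrophil markers (3 of 8 in each). The mean log2 level of the 10 macrophage and monocyte markers ran from -4.13 to -3.82 in untreated wildtype rats, from -3.49 to -2.33 in DSS-treated wildtype rats, from -3.98 to -3.81 in untreated Pirc rats and from -2.79 to -2.08 in DSS-treated Pirc rats. The DSS-treated wildtype rat 14 had a macrophage mean of -2.33, within the range of the DSS-treated Pirc rats, and a Socs3 level of -2.63, below all of theirs. For the 8 squamous markers the DSS-treated Pirc rats ranged from 1.32 to 3.65, and the DSS-treated wildtype rat 22 had 2.68 with a Socs3 level of -3.13. The mean of the 8 neutrophil markers ran from -3.91 to -2.48 in DSS-treated Pirc rats, above the -4.82 to -3.99 of DSS-treated wildtype rats, and the part of these cells in the Socs3 difference was not tested.

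**Figure D2:**
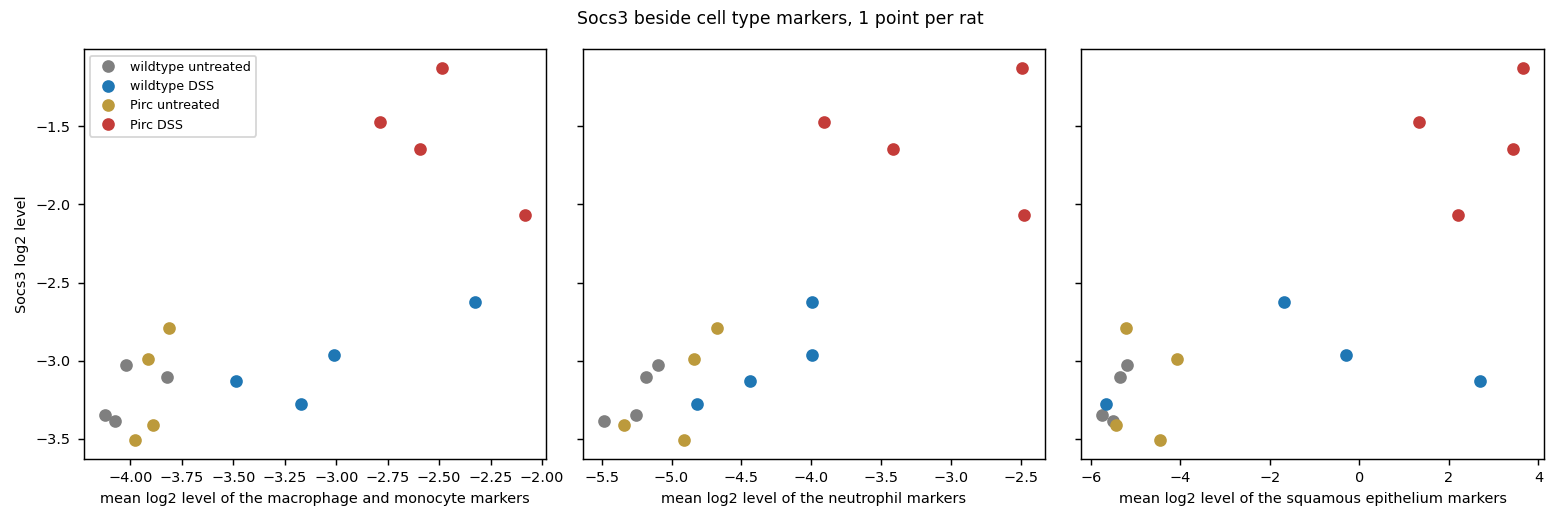
Socs3 log2 level (vertical axis) against the mean log2 level of 10 macrophage and monocyte, 8 neutrophil and 8 squamous epithelium markers (horizontal axes), 1 point per rat, coloured by group. Wildtype rats 14 and 22 reach the macrophage and the squamous range of the DSS-treated Pirc rats with Socs3 at -2.63 and -3.13. Neutrophil means ran from -3.91 to -2.48 in DSS-treated Pirc rats and from -4.82 to -3.99 in DSS-treated wildtype rats, without overlap. The part of these cells was not tested.

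The genes whose profile over the 16 rats lay nearest to that of Socs3 were Bcl3, Mrto4 and Map3k6. Likeness was the root-mean-square difference of log2 levels, each gene set to its own mean, among 10361 named genes well above background on all arrays. It was 0.30 for Bcl3, 0.31 for Mrto4 and 0.31 for Map3k6, against a spread of Socs3 about its own mean of 0.73. Bcl3, which encodes a nuclear partner of NF-kappaB and is also known as a STAT3 target, rose by 1.12 after DSS in Pirc rats (SE 0.25, adjusted p = 0.00736) and differed by 0.18 in wildtype rats, where it did not pass. Because Bcl3 was picked here for its likeness to Socs3 in these same rats, its values are no separate evidence.

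Stat3 rose after DSS by a smaller amount. Over both genotypes it was alike in size within slide 1 (0.47) and slide 2 (0.42), and neither passed alone in limma (adjusted p = 0.116 and 0.365). Its log2 levels were 1.75, 1.85, 1.85 and 2.07 in untreated wildtype rats and 2.04, 2.15, 2.32 and 2.33 in DSS-treated wildtype rats. They were 1.48, 1.62, 1.77 and 1.80 in untreated Pirc rats and 1.93, 2.14, 2.42 and 2.42 in DSS-treated Pirc rats. The treated and untreated Pirc rats did not overlap, and in wildtype rats 1 untreated rat, at 2.07, lay above the lowest treated rat.

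Over both genotypes Stat3 was higher by 0.45 (SE 0.10, adjusted p = 0.00552), with a range of 0.41 to 0.50 when each rat was left out. In Pirc rats the rise was 0.56 (SE 0.14, adjusted p = 0.0138), and in wildtype rats the difference was 0.33 (95% interval 0.03 to 0.63, adjusted p = 0.237). The 2 DSS effects differed by 0.24 (95% interval -0.18 to 0.65, adjusted p = 0.713). The call in Pirc rats was lost without untreated Pirc rat 15 (adjusted p = 0.0533) and when only the 2 compared groups were fitted (adjusted p = 0.0814). Between Pirc and wildtype rats Stat3 differed by -0.10 over both treatments (95% interval -0.31 to 0.11). The nearest profiles to Stat3 were those of Sema6b (0.13), Rbp2 (0.14) and Zdhhc9 (0.15), against a spread of Stat3 about its own mean of 0.28.

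Among the receptor chains, Il6r, the private chain for interleukin 6, had the widest change after DSS, from a level near the array's background. It was well above background on 0 of 4 arrays of untreated wildtype rats, 3 of 4 of untreated Pirc rats and all 4 of each DSS-treated group. Its log2 levels were -8.04, -7.61, -7.36 and -7.29 in untreated wildtype rats and -6.37, -6.23, -5.85 and -5.05 after DSS. In Pirc rats they were -7.16, -6.85, -6.80 and -6.65 without and -5.33, -5.28, -4.41 and -4.28 with DSS. Treated and untreated rats did not overlap in either genotype.

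In Pirc rats Il6r rose by 2.05 on the log2 scale (SE 0.30, adjusted p = 0.000545), a factor of 4.13. In wildtype rats it was higher after DSS as well (adjusted p = 0.00747), by at least 2.03-fold on the percentile-scaled values with each untreated array set at the lowest signal called well above background there. This size depends on how dim signals are treated. The difference between the 2 DSS effects was 0.34 (95% interval -0.57 to 1.26, adjusted p = 0.831). With normexp background correction the rise over both genotypes was 0.63 (adjusted p = 0.00296) in place of 1.87 (adjusted p = 5.13e-05), and the wildtype difference was 0.42 and no longer passed (adjusted p = 0.343). With dim values raised to a common floor the wildtype difference was 0.45 (adjusted p = 0.493).

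Il6r was also higher in Pirc than in wildtype rats, by 0.88 over both treatments (SE 0.21, adjusted p = 0.0126), a value that includes the untreated wildtype arrays, none of which was well above background. It was 0.05 with normexp (adjusted p = 0.775), 0.48 with the common floor (adjusted p = 0.0991), 0.29 within slide 1 (adjusted p = 0.497) and 1.47 within slide 2 (adjusted p = 0.0545), so that no call was made under any of these. Among DSS-treated rats Il6r was higher in Pirc rats by 1.05 (SE 0.30, adjusted p = 0.027). This was 0.15 within slide 1 and 1.96 within slide 2. It no longer passed without rat 18, 20, 22, 24 or 26 (adjusted p from 0.0532 to 0.0946), nor with normexp (0.26, adjusted p = 0.436). The call was also lost with slide and array row as a block (adjusted p = 0.0514) and with only the compared groups fitted (adjusted p = 0.111). Among untreated rats the genotypes did not differ past the threshold (adjusted p = 0.44), and no size is given. The other receptor chains of the group, described next, did not pass in any comparison.

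Il6st, which encodes the shared chain gp130, differed by 0.29 for DSS over both genotypes (95% interval 0.02 to 0.55, adjusted p = 0.138) and by 0.34 for Pirc over both treatments (95% interval 0.08 to 0.60, adjusted p = 0.0707). Its group means were -1.11 in untreated wildtype, -0.86 in DSS-treated wildtype, -0.81 in untreated Pirc and -0.49 in DSS-treated Pirc rats, and the 4 treated Pirc rats lay closest together (SD 0.08, against 0.24 to 0.30 in the other groups). With dim probes left out, the Pirc effect passed (adjusted p = 0.0474).

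Osmr, the chain for oncostatin M, was well above background on all 16 arrays. It differed by 0.56 after DSS in wildtype rats (95% interval -0.03 to 1.15, adjusted p = 0.333) and by 0.06 in Pirc rats (95% interval -0.53 to 0.64). Wildtype levels ran from -6.07 to -5.76 without and from -5.83 to -5.00 with DSS. Pirc levels ran from -6.20 to -5.36 without and from -6.24 to -5.07 with DSS. The DSS-treated Pirc rats spanned nearly the whole range of the gene, whereas the untreated wildtype rats were close together. Its nearest profiles were those of Mdk (0.18), Or2t1 (0.18) and Or2av9 (0.20), against a spread about its own mean of 0.41.

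Il10ra was well above background on 1 of 16 arrays, that of untreated Pirc rat 15, and no fold is given for it. Its measured group means lay between -8.87 and -8.44 with an SD of up to 0.87.

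**Figure D3:**
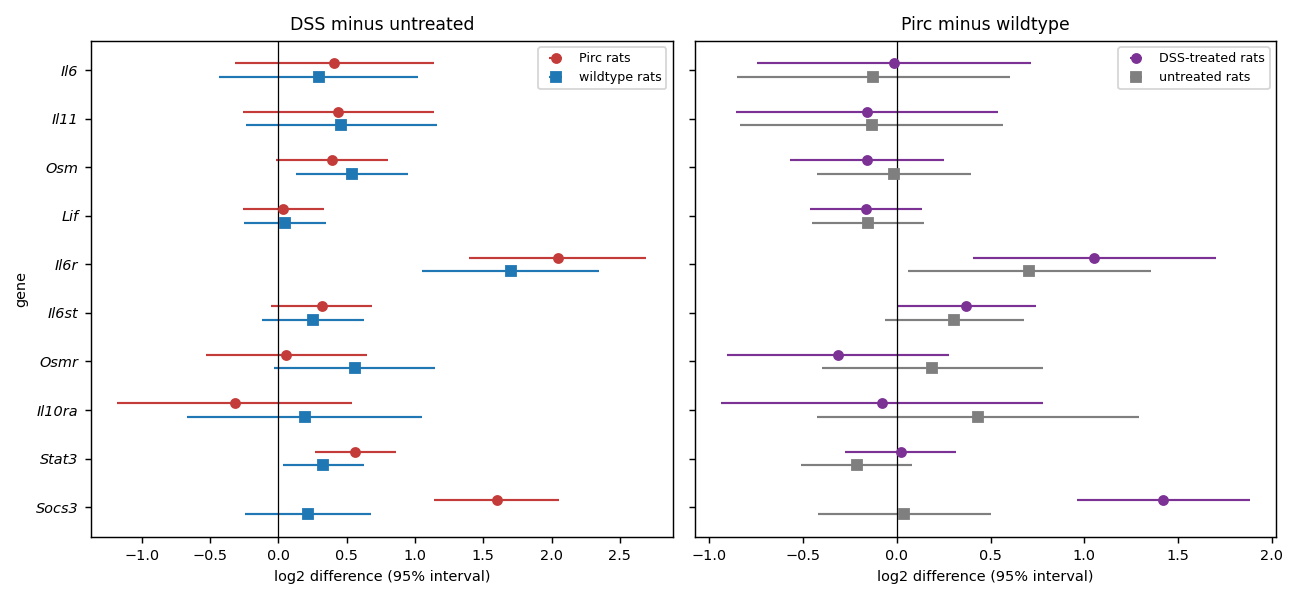
Log2 difference between groups for the 10 genes (horizontal axes, points, with 95% intervals from limma), 4 rats per group. Left, DSS-treated minus untreated rats for each genotype, and right, Pirc minus wildtype rats for each treatment. For Socs3 the DSS interval in Pirc rats (1.14 to 2.06) lies above that in wildtype rats (-0.24 to 0.68).

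Among the cytokines only Osm, which encodes oncostatin M and is made mainly by myeloid and T cells, passed a test. Its log2 levels were -4.25, -4.22, -4.16 and -3.92 in untreated and -3.95, -3.86, -3.52 and -3.08 in DSS-treated wildtype rats. They were -4.39, -4.16, -4.05 and -4.02 in untreated and -4.09, -3.90, -3.61 and -3.45 in DSS-treated Pirc rats. In each genotype the lowest treated rat fell below the highest untreated rat.

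Osm was higher after DSS by 0.47 over both genotypes (SE 0.14, adjusted p = 0.0274). The difference was 0.54 in wildtype (adjusted p = 0.15) and 0.39 in Pirc rats (adjusted p = 0.206), and neither passed alone. Over both genotypes it was 0.48 within slide 1 and 0.45 within slide 2, and neither slide passed alone in limma (adjusted p = 0.147 and 0.326). The call was lost with quantile normalization (0.30, adjusted p = 0.0968) and without any 1 of rats 13, 16, 18, 19, 20 or 21 (adjusted p up to 0.0597). DSS-treated wildtype rat 14 had the highest Osm level of all rats, -3.08, and the highest macrophage mean of the wildtype rats, -2.33. DSS-treated Pirc rat 16 had the highest macrophage mean of all rats, -2.08, with an Osm level of -3.61. The part of these cells in the Osm levels was not tested.

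Il6 itself was not well above background on any array (0 of 16), although its probe is printed at 10 spots per array. Its measured levels, from -9.76 to -7.90, are therefore not read as differences between groups. The lowest level came from the array with the highest 75th percentile (untreated Pirc rat 19, 2194) and the highest from the array with the lowest (DSS-treated Pirc rat 16, 875), the percentile by which the levels are divided.

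Il11, a cytokine of stromal cells, and Lif were well above background on all 16 arrays and did not pass. Il11 differed by 0.45 for DSS over both genotypes (95% interval -0.04 to 0.94, adjusted p = 0.228). In wildtype rats its levels ran from -2.38 to -1.94 without and from -2.03 to -1.65 with DSS, and in Pirc rats from -2.97 to -1.73 and from -2.58 to -0.89. Lif differed by 0.04 (95% interval -0.17 to 0.25, adjusted p = 0.836), the narrowest interval among the 4 cytokines, with all 16 rats between -3.88 and -3.25. Compared between genotypes, none of the 4 cytokines passed under either treatment.

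Over both treatments 2 of the 10 genes were higher in Pirc rats, Il6r and Socs3 (0.73, SE 0.15, adjusted p = 0.00589), beside 9.26% of all probes. The Il6r call was lost with normexp and with the common floor, as given above, and Socs3 was 0.42 within slide 1 (adjusted p = 0.312) and 1.04 within slide 2 (adjusted p = 0.122). Neither met the factor of 2, which 1.22% of all probes did. Among DSS-treated rats the same 2 passed and met the factor of 2, beside 9.47% and 3.1% of all probes, and Socs3 alone was without overlap, as were 18.8% of all probes. Among untreated rats 0 of the 10 passed, as did 0 of the 30367 probes in limma (0%), although 3103 probes had an unadjusted p under 0.05.

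The windows around the annotated start sites of the 10 genes were searched for the 9-base STAT motif, because Socs3 and several listed genes are known as STAT3 targets. Each window of the RefSeq table (GRCr8) spans 250 bases before to 50 after the start, and 8 of the 10 genes had one, Osm and Lif being without. The motif TTCNNNGAA, which reads the same on both strands, was in 0 of these 8 windows and in 8.87% of all 33469 windows. In the Socs3 window an ATG lies shortly after the annotated start, with no stop codon in its frame before the window ends. The windows of Il6r, Icam1 and Socs1, printed below, show the same, so this feature does not tell whether a window lies inside its gene. Whether the Socs3 window does was not tested, and the search cannot tell whether the Socs3 promoter holds the motif. Whether the annotated starts are those used in the colon was not tested. Among the listed pathway genes that are not among the 10, 8 of 57 with a window held the motif. They were Socs1, Cish, Il10rb, Il19, Il24, Reg3b, Fgb and Icam1. Cish, an inhibitor of cytokine receptors, had 4 matches and differed by 0.0086 for DSS over both genotypes (adjusted p = 0.983). Icam1 and Socs1 are printed as examples chosen after their values were seen. The windows of Socs3, Stat3 and Il6r follow, and then those of Icam1 and Socs1, with the motif in capitals where it occurs.
Socs3 (chr10:103694719-103695018, minus strand): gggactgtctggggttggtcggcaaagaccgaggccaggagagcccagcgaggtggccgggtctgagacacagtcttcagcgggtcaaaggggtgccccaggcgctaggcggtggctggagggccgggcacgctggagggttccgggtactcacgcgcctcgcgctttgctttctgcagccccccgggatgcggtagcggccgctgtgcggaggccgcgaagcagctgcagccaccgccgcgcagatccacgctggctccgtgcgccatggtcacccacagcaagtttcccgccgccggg
Stat3 (chr10:86363310-86363609, minus strand): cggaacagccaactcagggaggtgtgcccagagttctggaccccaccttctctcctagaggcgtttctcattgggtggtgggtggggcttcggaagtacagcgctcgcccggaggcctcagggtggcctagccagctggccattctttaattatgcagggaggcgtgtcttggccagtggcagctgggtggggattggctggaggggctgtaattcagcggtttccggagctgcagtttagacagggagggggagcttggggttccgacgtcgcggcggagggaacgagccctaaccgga
Il6r (chr2:177645160-177645459, minus strand): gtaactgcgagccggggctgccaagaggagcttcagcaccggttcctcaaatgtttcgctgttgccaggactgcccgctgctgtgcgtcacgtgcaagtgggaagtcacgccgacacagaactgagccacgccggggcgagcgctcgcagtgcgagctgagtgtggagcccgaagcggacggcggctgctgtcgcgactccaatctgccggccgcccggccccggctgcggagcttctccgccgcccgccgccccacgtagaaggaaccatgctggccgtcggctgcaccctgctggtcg
Icam1 (chr8:27829595-27829894, plus strand): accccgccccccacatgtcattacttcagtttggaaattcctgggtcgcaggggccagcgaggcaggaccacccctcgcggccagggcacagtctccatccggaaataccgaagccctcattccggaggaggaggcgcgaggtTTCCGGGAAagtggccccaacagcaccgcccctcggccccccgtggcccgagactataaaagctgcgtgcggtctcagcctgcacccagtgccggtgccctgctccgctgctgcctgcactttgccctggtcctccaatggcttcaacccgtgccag
Socs1 (chr10:5389324-5389623, plus strand): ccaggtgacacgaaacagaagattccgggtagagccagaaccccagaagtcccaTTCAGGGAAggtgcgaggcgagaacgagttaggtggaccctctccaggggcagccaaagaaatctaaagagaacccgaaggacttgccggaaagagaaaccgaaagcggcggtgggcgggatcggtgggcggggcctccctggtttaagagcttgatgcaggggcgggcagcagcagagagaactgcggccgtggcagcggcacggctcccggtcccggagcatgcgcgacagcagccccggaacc

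In Icam1 the match TTCCGGGAA has its first base at -107 and in Socs1 the match TTCAGGGAA at -196, counted along the gene's strand with the first transcribed base as 1 and the base before it as -1. The AP-1 motif TGANTCA, also the same on both strands, was in the windows of Il11 and Osmr (2 of 8) and in 7.33% of all windows, and the TATA motif TATAAA, searched on both strands, in 0 of 8 and 14.2%. A match is only a run of letters in this window, and elements farther from the start were not searched.

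The rest of the pathway was described through 80 further genes, of which 68 had a probe. For DSS over both genotypes 22 of them were higher and 4 lower, 38.2% of the 68 beside 17.2% of all probes in either direction. In Pirc rats 21 were higher and 3 lower, 35.3% beside 14.7% of all probes, and in wildtype rats 5 were higher and 1 lower, 8.82% beside 3.84%. Between genotypes, 17 were higher and 9 lower in Pirc rats after DSS, 38.2% beside 18.2% of all probes, while 0 passed without DSS and 0 passed for the difference between the DSS effects. The median log2 difference of the 68 for DSS over both genotypes was 0.18.

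Among other cytokines of the gp130 family, 1 of 4 rose and 1 fell for DSS over both genotypes. Of 4 other receptor chains of the family 1 was lower. Of all probes, 17.2% passed in either direction. Ebi3, a subunit shared by composite cytokines of the family, rose by 2.54 after DSS in Pirc rats (SE 0.41, adjusted p = 0.000901). Its levels there were -4.73, -4.65, -4.45 and -3.70 without and -2.58, -1.98, -1.70 and -1.12 with DSS. In wildtype rats Ebi3 differed by 0.95, and 1 treated rat, at -1.97, stood above the other 3 (-4.05 to -3.31). Cardiotrophin 1 (Ctf1) was lower after DSS by a like amount in both genotypes (-0.59 in Pirc rats, adjusted p = 0.0202, and -0.62 in wildtype rats, adjusted p = 0.0414). Il11ra1, the private chain for Il11, differed by -0.55 over both genotypes (SE 0.14, adjusted p = 0.0143). Lifr passed for the Pirc effect but was not well above background on any array (0 of 16), and no fold is given.

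Of 9 other Janus kinases and STATs, Jak3, the kinase of the common gamma chain receptors of lymphocytes, rose in both genotypes. Its levels in wildtype rats were -3.65, -3.65, -3.14 and -2.65 without and -2.31, -2.14, -1.84 and -1.21 with DSS. In Pirc rats they were -3.17, -2.66, -2.26 and -2.15 without and -0.58, -0.42, 0.14 and 0.49 with DSS, with no overlap in either genotype. The rise was 2.47 in Pirc rats (SE 0.32, adjusted p = 0.000236) and 1.40 in wildtype rats (SE 0.32, adjusted p = 0.0261), and among DSS-treated rats Jak3 was higher in Pirc by 1.78 (adjusted p = 0.00305). Stat5a was lower after DSS (-0.27, SE 0.08, adjusted p = 0.0355) and lower in Pirc rats (-0.33, adjusted p = 0.015). Stat6, the STAT of interleukin 4 signalling, was lower in Pirc rats over both treatments (-0.54, SE 0.15, adjusted p = 0.0223), and so was Stat2, a part of the type I interferon response (-0.37, adjusted p = 0.0219). After DSS, Jak2, a main kinase of gp130, was lower in Pirc than in wildtype rats (-0.47, SE 0.15, adjusted p = 0.0394).

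Of 13 other inhibitors, 1 rose and 1 fell for DSS over both genotypes, a share close to the 17.2% of all probes. Socs1, which blocks Janus kinases directly, was higher by 0.79 (SE 0.16, adjusted p = 0.00267), and Socs2, known as a brake on growth hormone signalling, differed by -0.77 (SE 0.17, adjusted p = 0.00627). The Socs1 groups were apart in wildtype rats, from -5.91 to -5.66 without and from -5.25 to -5.00 with DSS. In Pirc rats they were apart as well, from -5.93 to -4.63 without and from -4.58 to -3.92 with DSS. This held for 12.4% of all probes in wildtype and 16.9% in Pirc rats. For DSS in wildtype rats 0 of the 13 inhibitors passed. Between genotypes, 4 inhibitors were lower and 1, Socs1 (0.79, adjusted p = 0.0225), was higher in Pirc rats after DSS, beside 18.2% of all probes in either direction. The 4 were Pias3, a nuclear inhibitor of STAT3 (-1.08, SE 0.26, adjusted p = 0.0107), Socs5 (-0.50, adjusted p = 0.0405), the phosphatase Ptpn6 (-0.45, adjusted p = 0.0324) and Socs4 (-0.42, adjusted p = 0.0264). Pias4 was lower in Pirc rats over both treatments (-0.39, SE 0.12, adjusted p = 0.0387). The 5 measured markers of colon epithelium that were lower in Pirc rats after DSS, of 10, stand beside these falls, and their part was not tested.

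The cytokines of the interleukin 10, 22 and 23 group signal through STAT3 by other receptors. Il23a, the private subunit of interleukin 23, was well above background on 0 of 4 arrays of untreated wildtype rats and on 10 of 16 in all. In Pirc rats its levels were -7.47, -7.20, -6.79 and -6.33 without and -4.20, -2.19, -1.97 and -1.60 with DSS, a rise of 4.46 (SE 0.57, adjusted p = 0.000213). In wildtype rats it did not pass (adjusted p = 0.0899), and no size is given for it there.

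Il10, which restrains inflammation, was well above background in all 4 DSS-treated Pirc rats (-5.54, -3.16, -2.79 and -2.54) and in 2 of the other 12 rats. Among these, DSS-treated wildtype rat 14 had -5.67. The rise after DSS in Pirc rats passed (adjusted p = 0.000237), with a measured difference of 4.37 that rests on untreated arrays of which 1 of 4 was well above background. In wildtype rats it did not pass (adjusted p = 0.502), and no size is given. Il22, which acts on epithelium to induce STAT3, was well above background in 3 of 4 DSS-treated Pirc rats and in 0 of the other 12 rats. It was at least 2.55-fold higher after DSS in Pirc rats (adjusted p = 0.000414) and at least 1.90-fold higher in Pirc than in wildtype rats after DSS (adjusted p = 0.000494). Neither Il10 nor Il22 passed the test of the difference between the DSS effects (adjusted p = 0.139 and 0.104).

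Of the receptor chains of this group, Il22ra2, a soluble protein that binds and blocks interleukin 22, rose in Pirc rats by 1.70 (adjusted p = 0.000778) and in wildtype rats by 1.08 (SE 0.26, adjusted p = 0.0359). Il22ra1, the signalling chain for interleukin 22 in epithelium, was lower in Pirc rats, with a difference of -1.04 among DSS-treated rats (SE 0.16, adjusted p = 0.0014) and of -0.79 over both treatments (adjusted p = 0.00109). Its levels after DSS ran from -4.46 to -4.06 in wildtype and from -5.54 to -5.11 in Pirc rats.

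**Figure D4:**
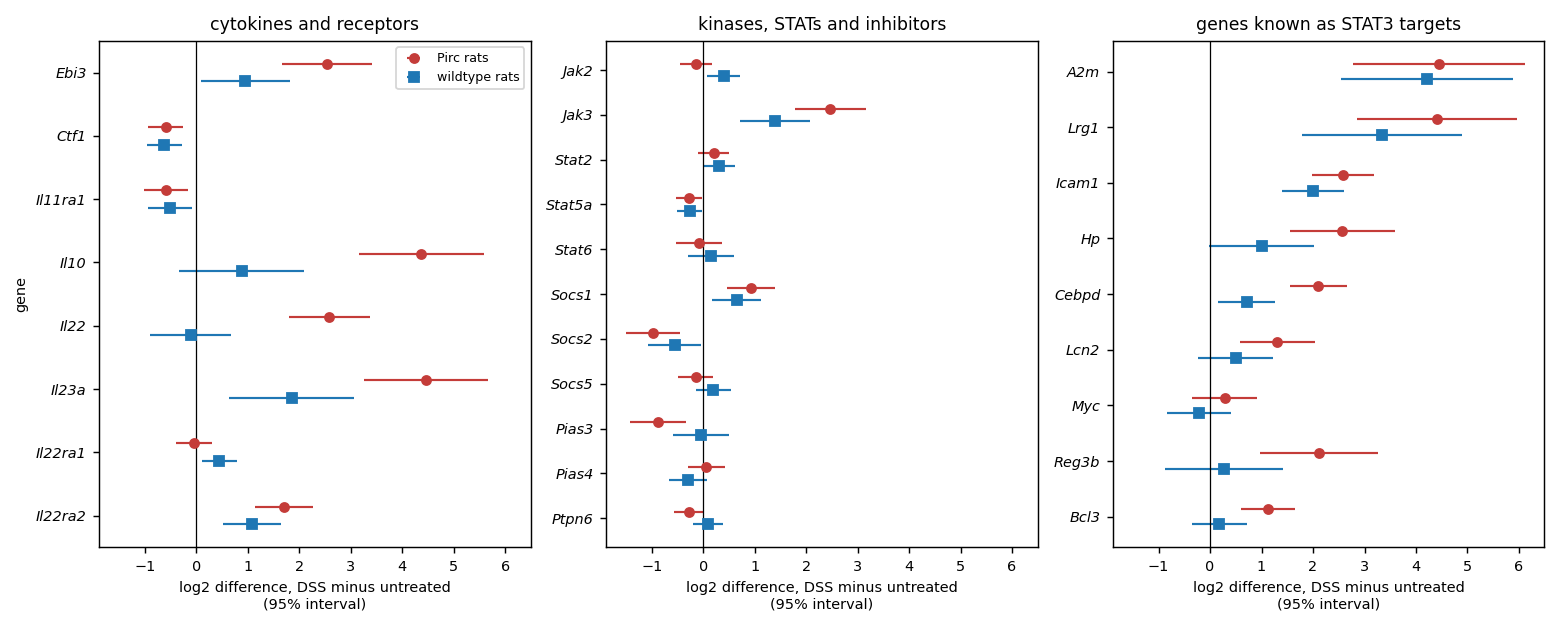
Log2 difference between DSS-treated and untreated rats (horizontal axes, with 95% intervals from limma) for the named pathway genes outside the 10, in Pirc rats (circles) and wildtype rats (squares), 4 rats per group. Values of Il10, Il22, Il23a, A2m, Lcn2 and Reg3b in both genotypes, and of Hp in wildtype rats, include arrays not well above background. A2m, Lrg1, Icam1 and Jak3 lie to the right of 0 in both genotypes. None passed the test of the difference between genotypes.

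Of 25 measured genes known as STAT3 targets, 13 rose and 0 fell for DSS over both genotypes, with a median log2 difference of 0.52, beside 10.2% of all probes higher. In Pirc rats 12 rose, beside 8.14%, and in wildtype rats 3, beside 2.94%. Those 3 were A2m (4.22, SE 0.78, adjusted p = 0.00926), a protease inhibitor and acute phase protein in rats, Lrg1 (3.34, SE 0.73, adjusted p = 0.0208), a secreted acute phase glycoprotein, and Icam1 (1.99, SE 0.28, adjusted p = 0.0025), an adhesion molecule for leukocytes. In Pirc rats they rose by 4.44, 4.41 and 2.58. A2m was well above background on all 8 arrays of treated rats but on 1 of 4 in each untreated group, so its values rest mostly on dim untreated signals. Its second probe gave 4.06 over both genotypes (adjusted p = 0.000151). Many of these genes are also known as targets of NF-kappaB or are made by leukocytes and stromal cells.

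Icam1 levels were -5.96, -5.58, -5.41 and -5.37 in untreated and -4.10, -4.03, -3.14 and -3.08 in DSS-treated wildtype rats. In Pirc rats they were -5.40, -5.14, -4.98 and -4.98 without and -3.00, -2.75, -2.64 and -1.80 with DSS, so that both genotypes were apart by treatment. Hp, the haemoglobin-binding haptoglobin, rose in Pirc rats by 2.57 (SE 0.48, adjusted p = 0.0024) and was higher there than in DSS-treated wildtype rats by 2.08 (adjusted p = 0.00922).

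Cebpd, a transcription factor of the acute phase response, had the largest Pirc effect of the 25 targets. Its levels were -1.19, -1.18, -0.87 and -0.82 in untreated wildtype rats and -0.52, -0.52, -0.35 and 0.17 after DSS. In Pirc rats they were -0.18, 0.45, 0.45 and 0.80 without and 1.82, 2.48, 2.51 and 3.10 with DSS. Both untreated groups were apart from each other, as were 8.72% of all probes, but no probe passed the test between untreated genotypes. The treated Pirc rats lay above all others. Cebpd was higher in Pirc rats by 2.09 over both treatments (SE 0.18, adjusted p = 4.92e-05) and by 2.78 among DSS-treated rats (SE 0.26, adjusted p = 6.53e-05).

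In all, 8 of the 25 targets were higher and 1 was lower in Pirc than in wildtype rats after DSS, beside 9.47% of all probes higher. Lcn2, which withholds iron from bacteria, was higher by 1.49 (SE 0.34, adjusted p = 0.00899), though well above background on only 9 of 16 arrays. Reg3b, an antimicrobial lectin of epithelium, passed (adjusted p = 0.0415), but it was well above background on 2 of 16 arrays and no fold is given. Myc, a growth regulator and also a known target of beta-catenin, was higher in Pirc rats over both treatments by 1.07 (SE 0.21, adjusted p = 0.00422) and differed by 0.03 for DSS (adjusted p = 0.942).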

How the data were processed

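Agilent Feature Extraction 10.7.3.1 output of 16 single-colour rat arrays was used, 1 array per rat. Per the file headers the authors deposited a processed signal, which is an intensity (linear scale, local background subtracted, no scaling between arrays), with flags (other columns) for outlier spots and for spots well above background. The labels name Partek among the authors' tools. The array design was made on rn4, so no probe coordinates are given.

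Control spots (4259 of 62976) and outlier-flagged spots were left out, spots of a probe were averaged after log2 and subtraction of the 75th percentile, and 18006 of 30367 probes were named by accession from the GRCr8 RefSeq gene table. Groups came from the labels. Where a gene had several probes the brightest stood for it. Differences were tested with limma 3.58.1 (lmFit and eBayes, R 4.3.3) in 1 fit of all 16 arrays with 1 mean per group. The 7 comparisons were each adjusted by the Benjamini-Hochberg method over the 30367 probes. A probe passed at an adjusted p up to 0.05, and a gene is said to rise or fall, or to be higher or lower, only then. The further condition was a factor of 2. The scripts were tested on simulated data.

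The 10 genes, the pathway and marker lists and the tests were chosen with earlier results of these data known. The genes named outside the 10 are, in each list, up to 4 with the largest change among those that passed for DSS or Pirc over both levels of the other factor, or for Pirc among DSS-treated rats, and the 3 profiles nearest to Osmr, Stat3 and Socs3. Socs4 was named after its values were seen, to complete a count. The rule names 1 further gene that is not reported here. The alternatives were quantile normalization, scaling to the median, normexp (offset 50, on median signals), a common floor, a filter on dim probes, flagged spots kept, slide, or slide and array row, as a block, only the compared groups, no moderation, other thresholds, probes averaged and each rat left out. Each slide alone was added after seeing the data. Nothing in the labels says which rats are littermates.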

Additional observations from a re-analysis of the deposited data

Results flagged for a closer look

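Untreated wildtype rat 13 had an Il11 log2 level of -1.94, above the other 3 rats of its group, which lay between -2.38 and -2.34. Its gap to the nearest rat was 0.914 of the group's range, beyond Dixon's critical value. It was the only such value among 40 groups of 4 rats checked for the 10 genes, where chance alone would give about 2. No comparison of Il11 passed, with or without this rat.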

How the results depend on the processing

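The number of the 10 genes that met both conditions (adjusted p and factor of 2) was 1 for the DSS effect averaged over genotypes, 2 for DSS in Pirc and 1 in wildtype rats. For the Pirc effect it was 0 averaged over treatments and 2 among DSS-treated rats. With normexp these counts became 0, 1, 0, 0 and 1, in that order, and with the common floor 0, 2, 0, 0 and 1, each change being Il6r, whose level is near background. For Pirc among DSS-treated rats the count was also 1 with slide and array row as a block and with only the compared groups fitted. With no minimum change the counts for DSS and for Pirc over both levels were 4 and 2. Leaving out each rat gave 0 to 1 for Pirc over both treatments (1 without rat 14) and 1 to 2 for Pirc among DSS-treated rats (1 without rat 18, 20, 22, 24 or 26), and no other count moved. Of 434 alternative values of the 10 genes, leaving out of rats aside, 400 kept their direction and their side of the threshold, 26 lost the threshold, 1 gained it and 7 changed sign. None of those 7 had passed. They were, with quantile normalization, Lif for DSS (-0.11), Il6 for Pirc (0.18) and Stat3 for Pirc among DSS-treated rats (-0.0083), and, with normexp, Il10ra for DSS (0.18), Il10ra for Pirc (-0.21), and Il6r (-0.16) and Socs3 (-0.050) for Pirc among untreated rats. Over all probes, the median DSS effect averaged over genotypes was 0.15 with normexp and -0.06 with quantile normalization, and the median Pirc effect averaged over treatments was -0.18 with normexp. Leaving out single rats turned the sign of 23 of 70 gene differences, of which 0 had passed. Some of their ranges follow. For DSS over both genotypes these ranged from -0.022 to 0.083 (Lif) and -0.24 to 0.11 (Il10ra). For Pirc over both treatments they were -0.19 to 0.060 (Il6), -0.17 to 0.028 (Osmr) and -0.0029 to 0.36 (Il10ra). For Pirc among untreated rats they were -0.087 to 0.15 (Socs3) and -0.062 to 0.063 (Osm), and among DSS-treated rats -0.28 to 0.014 (Osm) and -0.044 to 0.12 (Stat3). For the difference between the DSS effects of Osm the range was -0.26 to 0.029. The common floor gave no value for Il6, and the filter on dim probes removed Il6 and Il10ra. No paired analysis was possible because each rat number occurs once. Causes of these changes were not tested.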
